A study of Mus musculus with 12 samples.

Results

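Tandem acceptors are pairs of 3′ splice sites of 1 intron that lie so close together that choosing the upstream or the downstream site adds or removes only a few nucleotides of exon. They were taken from the splicing event table of murine G1E-ER4 erythroblasts as every alternative acceptor event whose variable part, the stretch between both sites, was 1 to 9 nt long. This gave 891 of 19323 events, or 26.9% of the 3309 alternative acceptor events, in 778 genes. The variable part was 3 nt long in 789 events, the class known as NAGNAG, and 6, 7, 8 or 9 nt long in 41, 12, 14 and 35 events. No event of 1, 2, 4 or 5 nt was in the table.

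G1E-ER4 is a mouse proerythroblast line that lacks its own GATA1 and carries a fusion of GATA1 with the ligand-binding domain of the estrogen receptor, through which estradiol triggers erythroid maturation. Poly(A) RNA was sequenced from 3 libraries of heterozygous Sf3b1 K700E/+ cells and 3 libraries of isogenic Sf3b1 +/+ cells, all after 24 h of β-estradiol. Both genotypes went through Cas9 editing with a donor template, hygromycin selection and removal of the cassette by flippase. Each genotype is thus 1 clone, and the labels do not say whether the replicates were separate cultures, so the p-values rest on the spread among these libraries only. The untreated libraries (0 h) were not analysed here.

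SF3B1 is a subunit of the U2 small nuclear ribonucleoprotein, which recognizes the branch point of an intron upstream of the acceptor. After the first catalytic step, the spliceosome joins the exons at an AG downstream of the branch point, usually the first one that is accessible. In tandem acceptors 2 such AGs compete, and which one is used depends on their distance from each other and from the branch point, and on the base before each AG, with cytosine and thymine preferred over adenine and guanine. The K700E substitution lies in the HEAT repeats of SF3B1 and is known for the use of cryptic acceptors a short way upstream of the normal one.

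Sequences were available for most events. Of the 891, 830 were matched to 1 site of the GENCODE vM21 annotation of GRCm38 by gene, strand and both intron lengths, and the variable part could be read from its transcripts for 746. It ended in AG, the downstream acceptor, in 745 of these, the exception being Thoc2 with TCATAA. Among introns that a transcript holds unspliced, 181 of 183 also ended in AG at the upstream acceptor, and 106 of 106 whose first bases were held began with GT. The 8 pairs whose use differed between genotypes are shown first, because the results turn on them. The sequence is that of the spliced longer RNA on the strand of the gene, with the last bases of the donor exon, the variable part in capitals, and the first bases of the exon after the downstream acceptor; only Slc7a6os is shown unspliced, with the end of its intron, the variable part in capitals and the exon.
Eri3, 6 nt: gtaaggagagTTTTAGatgcctctgg
Alg13, 9 nt: ataggtctcgTTCTTTTAGgcgtagccat
Usp19, 9 nt: ggtgcagcagCGCCCCCAGgtacccagca
Dnttip1, 9 nt: gtacatgaagTTCTTCCAGaaggcagcgc
Fndc5, 9 nt: atgtgggcagGTGTTATAGctctcttctg
Synj1, 9 nt: gaaggccaagGCTGGAAAGttaaaagatg
Dbnl, 9 nt: gagccccgagCCCTTCCAGcaggacaggt
Slc7a6os, 8 nt: actcatgtttatgttgagATGTTCAGgta

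In the mutant cells 7 of these pairs shifted to the downstream acceptor and 1 to the upstream one. Use of the upstream acceptor was expressed as percent spliced in (PSI), the fraction of reads on the longer path after each path's reads were divided by its length. Events were tested when the paths together held 10 or more reads in each of the 6 libraries, which 776 of the 891 pairs did, in 687 genes. It was called when edgeR's quasi-likelihood F test gave a p under 0.05, adjusted by Benjamini-Hochberg over all 17475 events tested, and PSI differed by more than 0.10. By this rule 8 of 776 tandem acceptors were called (1.03%), against 5.46% of all events tested, and 10 had an adjusted p under 0.05 whatever their PSI difference, against 8.08%. Higher PSI in Sf3b1 K700E/+ was called in 1 tandem acceptor, against 1.93% of all events, and lower PSI in 7, against 3.53%. The median PSI difference, mutant minus wild type, was -0.0056 over the tandem acceptors and -0.0096 over all events, and the median absolute difference was 0.022 against 0.0364. The 3 libraries of a genotype lay entirely above or below those of the other in 99 of the 776 (12.8%), against 25% of all events tested. This held in 8 of the 8 called, which were selected on the same values, so it adds no support to the calls.

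**Figure D1:**
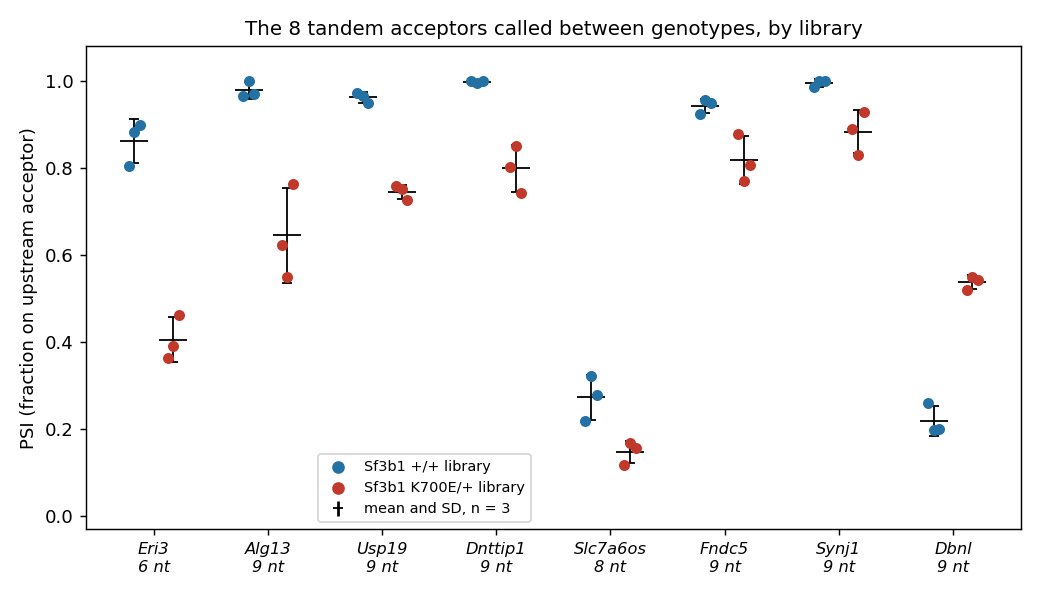
PSI, the fraction of length-corrected reads on the upstream acceptor, in each library for the 8 called tandem acceptors (points), with the mean and SD of 3 libraries per genotype (black). Sf3b1 K700E/+ libraries lie below Sf3b1 +/+ in 7 pairs and above only in Dbnl, where means are 0.538 and 0.22.

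The widest shift was in Eri3, a 3′-5′ exoribonuclease gene of the ERI1 family (chr4:117410200-117421862 of GRCm39 for the assembled event, plus strand). Its acceptors lie 6 nt apart in coding sequence, and only the upstream one is annotated. PSI was 0.364, 0.391 and 0.463 in the Sf3b1 K700E/+ libraries and 0.804, 0.882 and 0.898 in Sf3b1 +/+. All mutant libraries therefore used the unannotated downstream acceptor more often than the annotated one, and no wild-type library did. The reads on the downstream acceptor were 78, 58 and 41 in the mutant and 10, 6 and 4 in the wild type. Those on the upstream one were alike as raw counts, 38 to 48 in both genotypes, without correction for the greater depth of the mutant libraries. The PSI difference was -0.455 (0.406 ± 0.051 against 0.861 ± 0.051, SD, n = 3), the log2 ratio of the paths between genotypes was -3.15 ± 0.44 (SE), and edgeR's adjusted p was 1.92e-05. As seen above, the variable part of Eri3 has only thymines before its AG.

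Alg13 and Dnttip1 likewise gained an unannotated acceptor 9 nt downstream, in coding sequence and in frame. Alg13 encodes a subunit of the transferase that adds the second sugar of the N-glycan precursor (chrX:143134332-143134816, plus strand). Its downstream acceptor had 19, 17 and 10 reads in the mutant and 1, 0 and 1 in the wild type. PSI was 0.624, 0.549 and 0.764 against 0.965, 1 and 0.969, a difference of -0.333 at an adjusted p of 0.000641. The mutant libraries spread widely (SD 0.109, n = 3) but did not reach the wild-type ones. The 0 of 33 reads in wild-type replicate 2 allows a share of up to 9.09%, a limit that, like the others below, covers counting error only.

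Dnttip1 encodes a subunit of the mitotic deacetylase complex of HDAC1 and HDAC2 (chr2:164589439-164596077, plus strand). The downstream acceptor had 28, 16 and 30 reads in Sf3b1 K700E/+, and 0, 1 and 0 in Sf3b1 +/+, where the upstream one had 133, 202 and 163. In other words it was close to absent from the wild-type clone at this depth, since the 0 counts allow shares of up to 2.26% in replicate 1 and 1.84% in replicate 3. PSI was 0.803, 0.851 and 0.742 in the mutant and 1, 0.995 and 1 in the wild type, a difference of -0.199 with an adjusted p of 2.55e-07.

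Usp19, Synj1 and Fndc5 made up the rest of the shifts to a downstream acceptor at 9 nt. In Usp19, a deubiquitinase gene (chr9:108375195-108375368, plus strand), both acceptors are annotated. Reads on the downstream one were 46, 47 and 61 in the mutant and 4, 6 and 8 in the wild type. PSI was 0.757, 0.751 and 0.726 against 0.971, 0.965 and 0.948 (difference -0.217, log2 ratio -3.07 ± 0.36 SE, adjusted p 9.72e-07). The genotypes were far apart compared with the spread within them, SD 0.017 and 0.012 with n = 3. Usp19 holds another pair of 6 nt and one of 3 nt in other introns, and there the PSI differences were -0.0068 and 0.0054 with adjusted p of 0.927 and 0.977.

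Synj1 encodes synaptojanin-1, an inositol phosphatase of vesicle uncoating (chr16:90770917-90773527, minus strand), and both of its acceptors are annotated. The downstream acceptor had 8, 11 and 4 reads in Sf3b1 K700E/+ and 1, 0 and 0 in Sf3b1 +/+. PSI was 0.888, 0.83 and 0.929 against 0.985, 1 and 1, and the difference of -0.112 had an adjusted p of 0.00438. The genotypes did not overlap, but the change lay just past the PSI threshold, and without mutant replicate 2 it was -0.0864 and no longer called. The 0 counts allow shares of up to 4.48% and 4.84% in wild-type replicates 2 and 3.

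Fndc5, which encodes the precursor of irisin (chr4:129033683-129035902, plus strand), has an unannotated downstream acceptor. It had 14, 35 and 32 reads in the mutant and 12, 12 and 13 in the wild type, where the upstream one had more, 164, 291 and 264 against 113, 130 and 149. PSI was 0.879, 0.77 and 0.807 against 0.925, 0.956 and 0.948 (difference -0.124, log2 ratio -1.95 ± 0.37 SE, adjusted p 0.000714). Every mutant library lay below every wild-type one. Without mutant replicate 2 the difference was -0.1, just under the PSI threshold in size and not called, and limma on logit PSI gave an adjusted p of 0.0652. Fndc5 RNA itself was lower in the mutant, 74.7 ± 17 against 146 ± 25.5 CPM (SD, n = 3), where CPM is the TMM-normalized count scaled to library size.

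Slc7a6os was the only called pair whose length is not a multiple of 3, with acceptors 8 nt apart (chr8:106928944-106931003, minus strand), and the file places it outside coding sequence. Its upstream acceptor is unannotated and was the minor one in both genotypes. PSI was 0.119, 0.168 and 0.157 in Sf3b1 K700E/+ and 0.219, 0.323 and 0.278 in Sf3b1 +/+. Upstream reads were alike as raw counts, 41, 59 and 43 against 40, 54 and 49, whereas downstream reads were 276, 266 and 210 against 130, 103 and 116. Neither was corrected for the greater depth of the mutant libraries. The difference of -0.125 (log2 ratio -1.11 ± 0.28 SE) had an adjusted p of 0.013, which was 0.0791, 0.0783 and 0.0507 without mutant replicate 1, wild-type replicate 2 or wild-type replicate 3. DESeq2 gave 0.107 and limma on logit PSI 0.138, so this call was lost under both tests.

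Dbnl, which encodes a drebrin-like actin-binding protein, was the only pair with a shift to the upstream acceptor (chr11:5747136-5747322, plus strand). PSI was 0.519, 0.55 and 0.543 in the mutant libraries and 0.259, 0.199 and 0.201 in the wild-type ones, so that the minor acceptor of the wild-type clone took slightly more than its partner in the mutant. The difference was 0.318 (0.538 ± 0.016 against 0.22 ± 0.034, SD, n = 3), the log2 ratio 2.06 ± 0.23 (SE) and the adjusted p 5.68e-07. Both acceptors are annotated.

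The Dbnl intron has another annotated acceptor, the third in order, since the CAG that follows the capitals above is itself a NAGNAG partner, and the table lists it as a separate event of 3 nt. Between the second and the third acceptor PSI was 0.298, 0.276 and 0.3 in the mutant and 0.309, 0.33 and 0.34 in the wild type. That difference of -0.035 did not pass the test (adjusted p 0.534), although the libraries did not overlap. Over all 3 acceptors, the first one took 26.1%, 27.3% and 28.3% of reads in Sf3b1 K700E/+ and 10.6%, 8.28% and 8.76% in Sf3b1 +/+. The second took 21.8 ± 1.04% in the mutant and 30.4 ± 1.81% in the wild type, and the third 51.0 ± 1.25% and 60.4 ± 0.852% (SD, n = 3), shares given here as a description without a test of their own. Both events share reads on the second acceptor, and the Dbnl event of 9 nt is left out when events in complex bubbles are dropped.

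**Figure D2:**
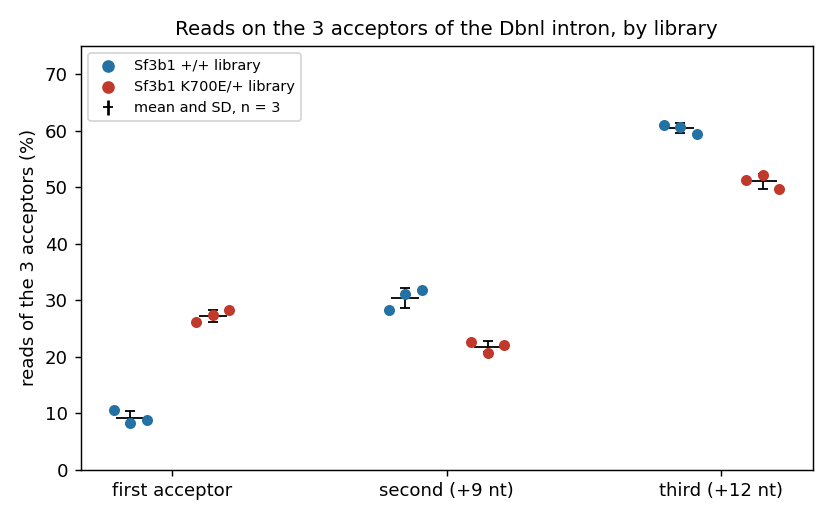
Share of reads on each of the 3 acceptors of the Dbnl intron (percent of the 3, not corrected for length) in each library, with the mean and SD of 3 libraries per genotype. The first acceptor takes 26.1% to 28.3% in Sf3b1 K700E/+ and 8.28% to 10.6% in Sf3b1 +/+, and the other two take less in the mutant.

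Calls were counted by the distance between the acceptors. None of the 691 tested pairs of 3 nt was called, against 1 of 39 at 6 nt, 0 of 8 at 7 nt, 1 of 8 at 8 nt and 6 of 30 at 9 nt (20%). Just beyond the limit of the class, 2 of 14 acceptor pairs at 10 nt were called, both with lower PSI, 3 of 11 at 11 nt, all with higher PSI, and 11 of 38 at 12 nt, of which 9 had higher PSI. Over the 572 tested acceptor pairs 10 to 30 nt apart, 152 were called (26.6%), 134 with higher and 18 with lower PSI, and their median PSI difference was 0.0367. Over 1546 pairs more than 30 nt apart, 122 were called (7.89%), 37 with higher and 85 with lower PSI. Tandem acceptors thus had the lowest share of calls of the 3 distance classes, and among them the upstream site was called higher only in Dbnl. These shares are a description of the classes, and depth was not equal between them, since the median reads in the shallowest library were 77, 58.5 and 95.

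**Figure D3:**
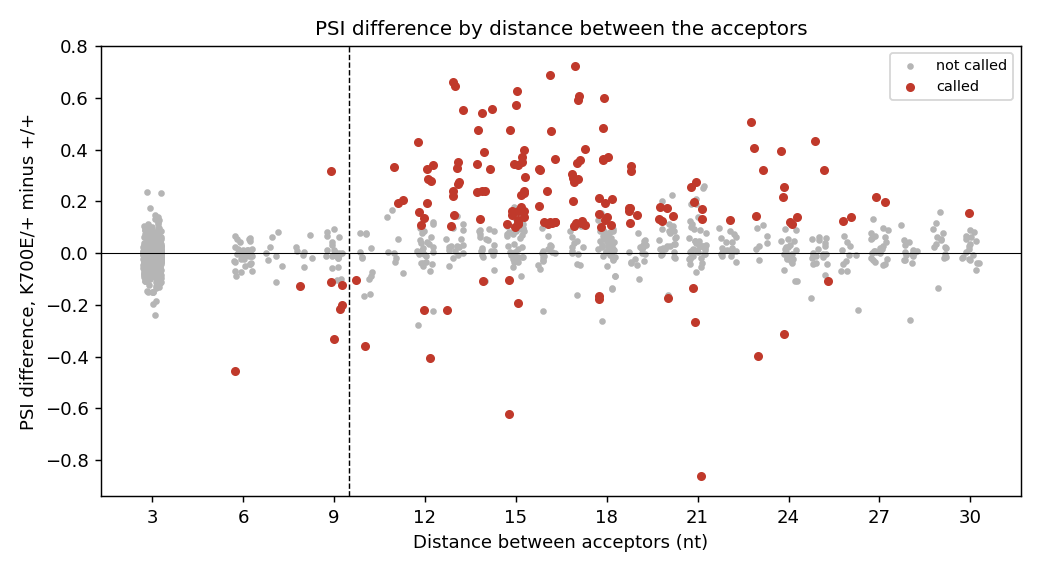
PSI difference, Sf3b1 K700E/+ minus Sf3b1 +/+, of every tested alternative acceptor pair up to 30 nt apart, against the distance between the acceptors in nt, with called pairs in red and a dashed line at the limit of the tandem class. Called pairs are absent at 3 nt, lie mostly below 0 from 6 to 10 nt and mostly above 0 from 11 to 20 nt.

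Pyrimidines were common in the variable parts of the longer tandems. Counted over the bases before the final AG, the 8 called pairs had a median of 92.9% pyrimidines (range 28.6% to 100%) and the 64 pairs of 6 to 9 nt that were not called and had a sequence 66.7% (0% to 100%). Eri3, Alg13, Dnttip1 and Dbnl consisted of pyrimidines only at these positions, whereas Synj1 had 28.6%. At 9 nt alone the gap was smaller, with a median of 85.7% in the 5 pairs called lower. It was 71.4% in the 17 that were not called and had a sequence. The ranges overlap fully, and the 9 nt pair with the most reads, in Shmt2, the mitochondrial serine hydroxymethyltransferase gene, has the variable part CCTCTGCAG and PSI means of 0.806 ± 0.021 and 0.804 ± 0.003 (SD, n = 3).

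Further longer pairs had sizable differences that did not pass. In Pde1b, a cyclic nucleotide phosphodiesterase gene with acceptors 7 nt apart, PSI was 0.846, 0.88 and 0.846 in the mutant and 0.967, 0.963 and 0.979 in the wild type (difference -0.112, adjusted p 0.115, but 0.0113 by limma on logit PSI), on 2 or 3 downstream reads per mutant library. In Smarca4, which encodes the BRG1 ATPase of SWI/SNF, the 9 nt pair had a PSI of 0.302, 0.236 and 0.282 against 0.392, 0.356 and 0.371 (difference -0.0996, adjusted p 0.0648), and it was called when only reads over both junctions were counted (difference -0.103, adjusted p 0.0014). In Nr1h2, which encodes the liver X receptor β, it was 0.438, 0.463 and 0.469 against 0.55, 0.527 and 0.605 (difference -0.104, adjusted p 0.157). These genes were named after their values were seen, and in each the mutant libraries lay below the wild-type ones without the main test being passed.

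The pairs with the most reads at 6, 7 and 8 nt differed by less than 0.05 in PSI, and none was called. At 6 nt this was Agfg1, an ARF GTPase-activating protein gene of endocytosis, with PSI 0.782, 0.775 and 0.785 against 0.795, 0.764 and 0.808 (adjusted p 0.879). At 8 nt it was Gtf2f1, the large subunit of TFIIF, with a PSI difference of 0.0075 and an adjusted p of 0.748. At 7 nt, Il9r, the interleukin-9 receptor gene, had PSI 0.822, 0.817 and 0.815 in the mutant and 0.906, 0.848 and 0.848 in the wild type, a difference of -0.0497 that did not pass (adjusted p 0.297). Only in Il9r did the genotypes not overlap.

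**Figure D4:**
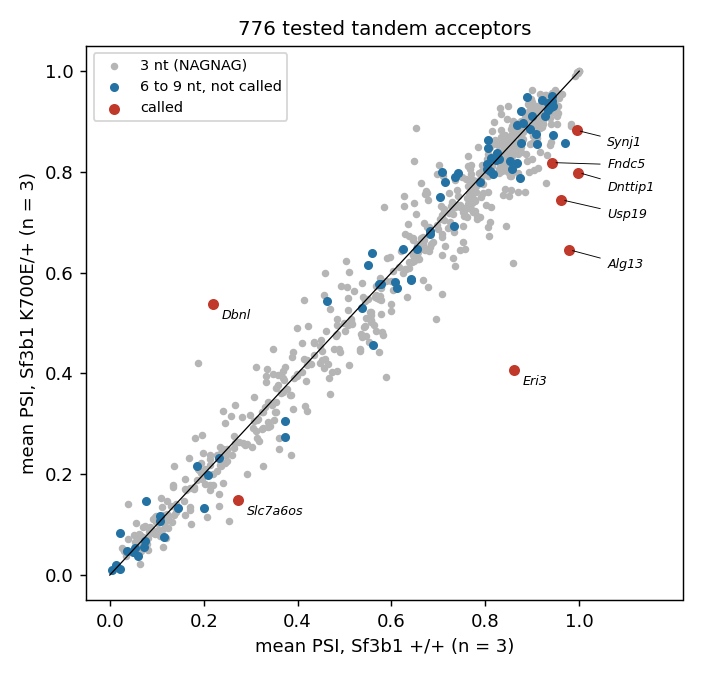
Mean PSI of 3 libraries in Sf3b1 K700E/+ against Sf3b1 +/+ for the 776 tested tandem acceptors, with pairs of 3 nt in grey, pairs of 6 to 9 nt in blue and the 8 called pairs in red. Most points lie along the diagonal of equal PSI over the whole range from 0 to 1.

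The NAGNAG class was next considered on its own, since it holds most of the tandem acceptors. No pair of the 691 was called by edgeR, nor by DESeq2 or by limma on logit PSI. All of these calls also need the same PSI difference over 0.10, which only 36 pairs had. The tools could therefore disagree only on those 36, and their agreement adds little. By edgeR 2 had an adjusted p under 0.05 with a smaller PSI difference, and 14 (2.03%) had an unadjusted p under 0.05, against 20.3% of all events. A share of 2.03% is below the 0.05 that a calibrated test gives without any difference. The test was thus cautious for these pairs, and the low share cannot show that small differences are absent. Use of both sites was common. In the wild type 339 had a mean PSI of 0.20 to 0.80, 256 above and 96 below, and in the mutant 350, 245 and 96. Median PSI over the class was 0.681 to 0.684 in the mutant libraries and 0.692 to 0.696 in the wild-type ones. The downstream acceptor took 26.6% to 27.5% of all NAGNAG reads in the mutant and 28.1% to 28.8% in the wild type, a sum that pairs with many reads dominate.

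The most-read NAGNAG introns with balanced use are shown at sequence level, the 3 variable bases in capitals. Rbm3 is spliced RNA with donor exon on the left, while Cnbp and Pcbp2 show the end of the intron before the capitals.
Rbm3: acagtggcagAAGccagggtggc
Cnbp: ttcttttccttattgttgAAGcct
Pcbp2: ctcttttctgtcttttagCAGgtt

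In these introns use of the acceptors differed between genotypes by no more than 0.0075. Rbm3, a cold-inducible RNA-binding protein gene (chrX:8009530-8009937, minus strand), had PSI 0.479, 0.47 and 0.472 in the mutant and 0.487, 0.481 and 0.476 in the wild type on at least 6025 reads per library, and the table lists the same acceptor pair in 2 events. The log2 ratio was -0.04 ± 0.15 (SE) and the adjusted p 0.917. Pcbp2, a poly(C)-binding protein gene (chr15:102397210-102398229, plus strand), had PSI 0.681, 0.657 and 0.659 against 0.687, 0.656 and 0.666 (adjusted p 0.956). Neither pair separated the genotypes.

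Cnbp, which encodes a zinc-finger nucleic acid-binding protein (chr6:87822263-87822487, minus strand), is one of the 2 introns whose upstream end is not AG: the annotated upstream site follows TTG, in an intron that begins with GT. Its PSI was 0.345, 0.326 and 0.33 in the mutant and 0.336, 0.332 and 0.322 in the wild type (log2 ratio 0.03 ± 0.15 SE, adjusted p 0.957), so the TG site took a like share in every library.

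Depth limited how small a difference could be seen, as did the spread, which the fit shared over all events. The SE of the log2 ratio was 0.146 in Rbm3 on at least 6025 reads per library. It was 0.156 in Pcbp2 on at least 2343, so among such deep pairs more reads hardly lowered it. Of the 691 NAGNAG pairs, 94.8% differed by at most 0.1 and 78.7% by at most 0.05. The 36 that differed by more than 0.1 had a median of 17 reads in their shallowest library, against 75 over the class. Of these 36, 23 were lower and 13 higher in the mutant. Among the 289 pairs with at least 100 reads in every library, none differed by more than 0.1, 17 differed by more than 0.05, and the median absolute difference was 0.0122. The median SD between libraries of a genotype was 0.0169 in the mutant and 0.0196 in the wild type for these pairs. The SD describes single libraries, whereas each difference is between means of 3 libraries. Their sizes therefore cannot show whether the typical difference exceeded replicate noise. Of the 289, 181 were lower in the mutant (62.6%), close to the 61.4% of all events of that depth, and 31 separated the genotypes (10.7%, against 29.7%), 28 with lower and 3 with higher PSI.

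**Figure D5:**
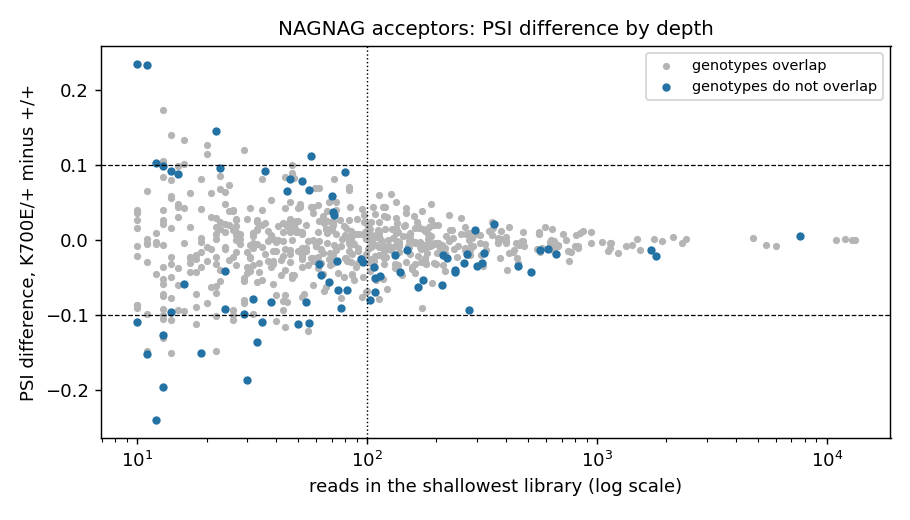
PSI difference, Sf3b1 K700E/+ minus Sf3b1 +/+, of the 691 tested NAGNAG pairs against the reads in the shallowest library (log scale), with pairs whose genotypes do not overlap in blue, dashed lines at differences of 0.1 and -0.1 and a dotted line at 100 reads. Right of the dotted line no pair passes the dashed lines, and of 31 blue points there, 28 lie below 0.

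The pairs with an adjusted p under 0.05 were Rpsa and Wnk1, both lower in the mutant. In Wnk1, a kinase gene (chr6:119933120-119937645, minus strand), PSI was 0.862, 0.862 and 0.854 in Sf3b1 K700E/+ and 0.906, 0.961 and 0.95 in Sf3b1 +/+ (difference -0.0794, adjusted p 0.0319). In Rpsa, a gene of the small ribosomal subunit (chr9:119960193-119960507, plus strand), PSI was 0.02, 0.024 and 0.019 against 0.068, 0.036 and 0.088 (difference -0.0427, adjusted p 0.0138). The genotypes did not overlap in either gene. In Rpsa this rests on few reads of the upstream acceptor, 6, 7 and 6 in the mutant and 17, 10 and 26 in the wild type. Only that acceptor is annotated, while the downstream one had 280, 275 and 297 against 225, 259 and 261 reads. Rpsa has many processed copies in the mouse genome, and its values are uncertain where reads of such copies entered the event. The widest difference among the 289 deep pairs was in Traf7, a ubiquitin ligase gene, with PSI 0.446, 0.406 and 0.398 against 0.53, 0.502 and 0.496 (difference -0.0924, adjusted p 0.13). These 3 were named after their values were seen.

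The base before the downstream AG went with how often the upstream acceptor was used, in both genotypes. The variable part of NAGNAG pairs was CAG in 488, AAG in 99, TAG in 69 and GAG in 10 of the 666 with a sequence. Among tested pairs, median PSI in the wild type was 0.671 for CAG (n = 433), 0.81 for TAG (n = 60), 0.863 for AAG (n = 93) and 0.875 for GAG (n = 10), and in the mutant 0.666, 0.818, 0.865 and 0.869. The upstream site held the majority of reads in the wild type in 67% of CAG, 78.3% of TAG, 88.2% of AAG and 90% of GAG pairs. The quartiles of CAG, 0.393 and 0.846, and of AAG, 0.72 and 0.912, overlap, and neither TAG, AAG nor GAG stands clear of its neighbours in this order. The median PSI difference within each class was -0.0078, -0.0085, 0.002 and -1.04e-05 for CAG, TAG, AAG and GAG.

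Where the intron end could also be read, the pairs could also be grouped by the base before the upstream AG. CAG upstream of CAG had a median wild-type PSI of 0.556 over 66 pairs that ran from 0.0261 to 0.955, CAG upstream of AAG 0.812 over 15, and AAG upstream of CAG 0.434 over 9. Mutant medians of these combinations were 0.533, 0.864 and 0.437. Pairs of equal upstream and downstream triplets thus still spread over nearly the whole range, and the intron sequences are those of genes for which the annotation holds an unspliced transcript.

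The annotation of the pairs was also tabulated. Both acceptors are annotated in 530 of the 891 pairs, only the upstream one in 231, only the downstream one in 105 and neither in 25. Median wild-type PSI in tested pairs was 0.663, 0.863 and 0.122 for the first 3 of these, and mutant medians were 0.655, 0.851 and 0.118. Calls were 3 of 482 with both annotated, 4 of 195 with only the upstream site and 1 of 95 with only the downstream one. The variable part was a multiple of 3 in 865 pairs, and the file marked 707 as lying in coding sequence and 181 as not.

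Pairs in genes of splicing, red cell biology and DNA replication were next examined. Of all tested tandem acceptors 1.03% were called, and none at 3 nt. The lists held 2 to 19 tested pairs each, too few for an absence of calls to set them apart. In the group of acceptor and second-step splicing factors, 3 of 29 genes had a tested pair and none was called. Sf3b2, a partner of SF3B1 in the U2 particle, had PSI 0.926, 0.939 and 0.935 in the mutant and 0.95, 0.945 and 0.956 in the wild type (adjusted p 0.43). Its genotypes did not overlap. Puf60, a U2AF-related factor, had means of 0.9 ± 0.02 and 0.911 ± 0.02, and Dhx38, the PRP16 helicase of the second step, 0.58 ± 0.033 and 0.537 ± 0.052 (SD, n = 3), and neither passed. Among RNA splicing and SR protein genes, 9 of 57 had a tested pair, none called, with differences up to 0.0239. Srsf5, a serine and arginine-rich splicing factor whose downstream site is the major one, had PSI 0.174, 0.171 and 0.174 against 0.179, 0.167 and 0.169, and the genotypes overlapped (adjusted p 0.984). Srsf10, Srsf11 and Acin1 differed by -0.0187, 0.0098 and 0.0079, and only in Srsf10 of these did the genotypes not overlap (adjusted p 0.718).

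Heme and iron genes held 2 tested pairs and erythroid genes 3, none of them called, against 1.03% of all tested tandem acceptors. Ftl1, the ferritin light chain gene, had the most reads of all tandem acceptors, and its downstream acceptor took 15, 19 and 12 reads in the mutant beside 32313, 28131 and 32624 on the upstream one, and 5, 8 and 3 in the wild type beside 12882, 14056 and 15905. The event was thus used almost only upstream in both genotypes (adjusted p 0.666), and reads of near-identical Ftl1 copies cannot be told apart from its own. Ncoa4, the receptor that takes ferritin to autophagy, had PSI 0.929 ± 0.003 and 0.94 ± 0.009 (SD, n = 3; adjusted p 0.585). In the red cell membrane skeleton, Epb41 (the protein that joins spectrin to actin), Add2 and Add1 (the adducins) differed by -0.0033, -0.0049 and -0.0128, with adjusted p of 0.925, 0.931 and 0.712.

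Among DNA replication and repair genes, 15 of 107 had tested pairs, 19 in all, with absolute differences up to 0.0932. None was called, against 1.03% of all tested tandem acceptors. Top2a, topoisomerase IIα, had PSI 0.65, 0.635 and 0.676 in Sf3b1 K700E/+ and 0.641, 0.665 and 0.659 in Sf3b1 +/+. Cdc6, the origin licensing ATPase, had 0.888 ± 0.003 and 0.876 ± 0.015, and Tipin, of the fork protection complex, 0.578 ± 0.036 and 0.577 ± 0.058 at acceptors 6 nt apart (SD, n = 3). Another tested Tipin event with the same variable part and fewer reads had means of 0.571 and 0.611 (difference -0.041, edgeR's adjusted p 0.682). Orc2, of the origin recognition complex, also at 6 nt, had 0.812, 0.821 and 0.833 against 0.885, 0.835 and 0.835. Its genotypes did not overlap, but the difference of -0.0298 did not pass the test (adjusted p 0.468).

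RNA levels of the host genes were compared in the gene count table. Of 686 genes with a tested pair in the gene-level test, 21 were called (3.06%, 6 higher and 15 lower) by an adjusted p under 0.05 and an absolute log2 fold change over 1, against 10.3% of all 12547 genes. None of the 8 genes with a called pair was among them. By the adjusted p alone, passed by 44.4% of all genes, Eri3 and Slc7a6os were higher in the mutant (log2 0.25 ± 0.06 and 0.49 ± 0.08, SE) and Dbnl, Dnttip1, Fndc5 and Synj1 lower (-0.30 ± 0.09, -0.66 ± 0.07, -0.98 ± 0.17 and -0.39 ± 0.07). Alg13 and Usp19 did not pass (adjusted p 0.139 and 0.779). Whether level and acceptor choice are related in these genes was not tested.

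Total gene counts were 44045337 to 50077827 per mutant and 38785471 to 40702174 per wild-type library, and reads on the tested tandem acceptors 267791 to 299021 and 220667 to 247492. Sf3b1 itself was at 758 ± 11.6 and 743 ± 14 CPM (SD, n = 3; adjusted p 0.858), a level that does not check the point mutation. Of 29 acceptor and second-step factors, 8 were higher in the mutant and 1 lower by the adjusted p, against 21.3% and 23.1% of all genes, none by over 1 on the log2 scale. U2af2, the large subunit of the U2 auxiliary factor that binds the polypyrimidine tract, rose by 0.34 ± 0.06 and Puf60 fell by 0.24 ± 0.06 (log2, SE), while Slu7 and Prpf18, the second-step factors, had 0.10 ± 0.06 and 0.00 ± 0.06 and did not pass. Of 14 erythroid markers, 13 were in the table and all 13 were at 1 CPM or more in every library. Granulocyte and macrophage markers summed to 1.2 to 1.65 CPM in the mutant and 6.37 to 14 CPM in the wild type over 6 genes, with Elane at 0, and their part in the results was not tested.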

How the data were processed

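The authors assembled splicing events with KisSplice and placed them on GRCm39 with KisSplice2refgenome; they deposited, per event, packed read counts of both paths (2 read files per library) and a PSI fraction. Gene counts were deposited unnormalized, from STAR 2.7.9 alignments per the labels. Columns of the authors' own comparisons were not used. Read files were summed per library. The longer path was counted as the study's counts imply, as 2 times the smaller junction count minus reads over both junctions, plus reads inside the variable part. The last term was left out of the planned formula, was 0 in every tandem acceptor, and was restored after the data were seen. Recomputed PSI lay within 0.01 of the deposited value in 100% of 5135 tandem acceptor values. Over all events, which give the background shares, it did so in 40.3% of 111546 values, with a correlation of 0.998. Path counts of all events with 10 or more reads per library were fitted in edgeR 4.0.16 (R 4.3.3) with library and path terms, and the interaction of path with genotype was tested by quasi-likelihood F test, adjusted by Benjamini-Hochberg. Genes were tested with edgeR after TMM normalization. Steps were tested on simulated data. Alternatives used DESeq2 1.42.0, limma 3.58.1, other coverage and PSI thresholds, other read counts, subsets of events, and each library left out.

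Named events are every called pair, the pair with most reads of each length, the 5 most-read NAGNAG events with mean PSI of 0.20 to 0.80 in both genotypes, and up to 4 tested pairs of each of 5 gene lists. A result that this rule names is not reported here. Members and lists were chosen with earlier results of these data known. Same-numbered libraries deviated together in gene counts (correlations 0.63, 0.48 and 0.48 over 8771 genes). The main gene test held genotype only, so its SE and adjusted p do not use this pairing, and the replicate block was an alternative. In PSI the correlations were 0.098, 0.048 and 0.071 over all events.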

Additional observations from a re-analysis of the deposited data

How the results depend on the processing

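The 8 calls stood at 7 to 10 under the other read counts, coverage minimums and tests and under leaving out events in complex bubbles, with DESeq2 and limma on logit PSI each giving 7. A PSI threshold of 0.20 left 4 calls, 3 of them falls. Rises were 2 at a coverage minimum of 5 or 1, where Ankhd1 (9 nt, 6 to 30 reads per library) had PSI 0.54, 0.511 and 0.585 in the mutant and 0, 0.07 and 0 in the wild type, and 0 without complex events, which leave out Dbnl. A coverage minimum of 1 also called 1 NAGNAG pair, Abcc5, which had 4 to 7 reads per wild-type library. Leaving out 1 library gave 6 to 8 calls, 1 to 2 rises and 5 to 7 falls, with Ankhd1 again the added rise without wild-type replicate 3, and 18 to 27 host genes. With the replicate number as a block there were 8 calls, 1 rise and 7 falls, and 20 host genes against 21; the block changed no call of a named pair. Of 616 values of named pairs under an alternative, 587 kept their direction and side of the threshold, 12 lost the call, and 17 changed sign. All 17 came from leaving out 1 library, in 9 pairs that were not called, so no direction can be read for these. Their differences then ran from -0.0134 to 0.0025 in Add2, -0.0207 to 0.0012 in Agfg1, -0.0016 to 0.0077 in Cnbp, -9.69e-05 to 0.0139 in Gtf2f1, -0.0119 to 0.0045 in Pcbp2, -0.0089 to 0.012 in Shmt2, -0.0013 to 0.0047 in Srsf5, -0.0304 to 0.0268 in Tipin and -0.0127 to 0.0079 in Top2a. No called pair changed sign.

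Depth limits the small classes: 8 pairs each of 7 and 8 nt were tested, and 115 pairs had under 10 reads in some library and were not tested. One clone per genotype means that clone and genotype cannot be told apart.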
